A study of Mus musculus with 6 samples.

Results

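Interferon-inducible GTPases are enzymes that cells make in response to interferons, above all interferon-gamma, to destroy the membrane compartments in which intracellular microbes live. The immunity-related GTPases (IRG) fall into regulators that guard the cell's own membranes (Irgm1, Irgm2 and Igtp) and effectors that load onto pathogen vacuoles (Tgtp1, Tgtp2 and Iigp1), while the guanylate-binding proteins (GBP; Gbp2, Gbp3, Gbp5 and Gbp7) assemble on vacuoles and bacteria and promote inflammasome activation. Their promoters typically carry an interferon-stimulated response element (ISRE) or a gamma-activated site (GAS), short sequences through which interferon signals reach these genes. The 10 genes described here, 6 IRG and 4 GBP, are 10 of 21883 protein-coding genes measured. They were selected on earlier results from the same peak lists, and the values behind that choice were the presence of peaks, the covered length and the peak strength by group. Those values are therefore given as a description, without a test.

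The measurements come from group 2 innate lymphoid cells (ILC2s) of the mouse colon, lymphocytes that live in tissues, carry no antigen receptor and make type 2 cytokines. The cells of all 3 groups were grown in vitro with IL-33 and IL-25, which activate ILC2s, and IL-7 and IL-2, which sustain them, before sorting. Control cells are labelled as such with no further agent, FK866 cells received an inhibitor of NAMPT, the enzyme that salvages nicotinamide for NAD synthesis, and FK866 plus succinate cells received the inhibitor together with an intermediate of the tricarboxylic acid cycle. Each group had 2 CUT&Tag libraries, a method in which an antibody directs a transposase to cut DNA near its target on chromatin. The sources used here give no antibody target, strain, dose or time. A peak is therefore read only as enrichment of an unnamed target. The labels do not say that the 2 libraries of a group came from separate cultures or animals, so the spread between them may be technical.

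The 6 peak lists held between 40320 and 56361 peaks on chromosomes, which covered between 39.0 and 43.8 Mb, and read depth is unknown. FK866 plus succinate 2 had the longest list and the narrowest peaks, with a median width of 528 bp against 616 to 737 bp in the other libraries. Peaks with an adjusted p under 0.05, by the authors' own peak statistics, numbered between 25187 and 28269. All 10 of 10 ILC2 marker genes had a peak in all 6 libraries. Markers of other cells also had peaks. A peak in every library was present at 3 of 5 T cell, 3 of 4 B cell, 2 of 5 macrophage and monocyte, 2 of 5 ILC1 and NK, 1 of 4 ILC3 and 3 of 4 epithelial markers. No library had a peak at Cd8a, Ms4a1, Adgre1, Ncr1, Ifng, Il23r or Il17a, and every epithelial marker had a peak in at least 1 library.

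To show what the peaks at these genes cover, the 250 bases upstream of the start are printed for members that show how these sites are arranged. Each is written 5′ to 3′ along the gene's own strand and comes from RefSeq promoters of GRCm38.p6, whose coordinates equal those of mm10. Capitals mark matches to the ISRE core GAAANNGAAA, read as TTTCNNTTTC on the other strand, and to the GAS core TTCNNNGAA, which is its own reverse complement. The first set holds the members in which a GAS core is followed, after a gap of 2 bases, by an ISRE core on the same strand. Tgtp1 is shown at chr11:48992247-48992496 and Tgtp2 at chr11:49064213-49064462, both on the minus strand, and Igtp at chr11:58199306-58199555 and Irgm2 at chr11:58214727-58214976, both on the plus strand.
Tgtp1: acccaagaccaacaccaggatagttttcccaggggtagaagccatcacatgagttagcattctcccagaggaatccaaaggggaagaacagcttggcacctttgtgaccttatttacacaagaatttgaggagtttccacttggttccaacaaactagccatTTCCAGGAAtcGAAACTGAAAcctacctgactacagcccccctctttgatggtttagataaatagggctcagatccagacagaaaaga
Tgtp2: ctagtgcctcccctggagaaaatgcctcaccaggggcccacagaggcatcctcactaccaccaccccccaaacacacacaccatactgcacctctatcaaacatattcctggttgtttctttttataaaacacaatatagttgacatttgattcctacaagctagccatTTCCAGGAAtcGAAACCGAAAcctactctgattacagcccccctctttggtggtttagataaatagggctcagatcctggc
Igtp: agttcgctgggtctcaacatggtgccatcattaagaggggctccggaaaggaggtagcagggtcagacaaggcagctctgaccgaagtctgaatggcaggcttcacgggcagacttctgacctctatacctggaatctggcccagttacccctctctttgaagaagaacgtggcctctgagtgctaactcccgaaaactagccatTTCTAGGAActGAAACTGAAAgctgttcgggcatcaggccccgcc
Irgm2: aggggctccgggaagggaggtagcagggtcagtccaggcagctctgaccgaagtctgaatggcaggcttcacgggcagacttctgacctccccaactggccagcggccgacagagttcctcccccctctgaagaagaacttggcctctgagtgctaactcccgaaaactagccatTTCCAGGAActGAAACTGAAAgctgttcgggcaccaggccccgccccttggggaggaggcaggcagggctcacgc

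The second set shows other arrangements of the same cores. Irgm1 (chr11:48871421-48871670, minus strand) holds 2 overlapping ISRE cores close to its start and no GAS core. Gbp7 (chr3:142530086-142530335, plus strand) holds 2 GAS cores and an ISRE core that reads on the other strand. Gbp2 (chr3:142620413-142620662, plus strand) holds 1 ISRE core on the other strand and no GAS core.
Irgm1: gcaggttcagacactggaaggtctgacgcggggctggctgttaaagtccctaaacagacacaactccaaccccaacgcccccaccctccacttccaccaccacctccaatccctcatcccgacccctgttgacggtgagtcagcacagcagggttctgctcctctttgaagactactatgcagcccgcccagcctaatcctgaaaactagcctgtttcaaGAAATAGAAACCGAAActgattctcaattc
Gbp7: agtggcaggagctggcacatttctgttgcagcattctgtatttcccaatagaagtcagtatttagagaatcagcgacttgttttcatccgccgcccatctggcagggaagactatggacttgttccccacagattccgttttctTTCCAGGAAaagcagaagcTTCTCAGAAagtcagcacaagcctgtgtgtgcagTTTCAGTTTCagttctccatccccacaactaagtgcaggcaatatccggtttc
Gbp2: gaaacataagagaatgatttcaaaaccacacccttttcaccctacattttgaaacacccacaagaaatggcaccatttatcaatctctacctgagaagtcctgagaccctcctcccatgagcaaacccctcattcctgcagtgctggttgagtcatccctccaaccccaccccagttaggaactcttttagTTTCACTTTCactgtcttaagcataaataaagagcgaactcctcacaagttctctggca

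Promoter sequences were matched for 9 of the 10 members, and the cores were searched on both strands in windows of 300 bases, from 250 before to 50 after each start. All 9 members had at least 1 ISRE core, compared with 1131 of 32851 promoter windows in the table (3.44%). A GAS core occurred in 6 of the 9 (Tgtp1, Tgtp2, Igtp, Irgm2, Gbp5 and Gbp7), compared with 2726 windows (8.30%). Gbp3, which has 2 annotated starts, carried 2 overlapping ISRE cores at the first and none at the second. Counted by window, as over the whole table, 9 of 10 member windows had an ISRE core and 6 of 10 a GAS core. The joined pattern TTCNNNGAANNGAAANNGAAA, searched for after the sequences had been seen, was present in 5 of the 32851 windows (0.0152%). Of these 5, 4 belong to Igtp, Irgm2, Tgtp1 and Tgtp2, where it begins 45, 75, 88 and 81 bases before the start, and 1 to Gm12185, another IRG-family gene. A match is a string of letters in the reference and not a measured binding site.

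Some of these promoters are near copies of each other. The Igtp and Irgm2 windows aligned over 271 columns with 91.1% identical bases and a longest identical run of 61, and the Tgtp1 and Tgtp2 windows over 209 columns with 82.8% identical bases and a longest run of 27. By comparison, Irgm1 and Irgm2 aligned with 65.1% and Gbp2 and Gbp5 with 58.7% identical bases. Short reads from near copies are placed less uniquely, and the sources used here do not say how the authors treated such reads. The alignments cover the promoter windows alone, and the part of read placement in the peaks was not tested. Values of Tgtp1 against Tgtp2 and of Igtp against Irgm2 are therefore read with caution.

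Peaks were then counted in a window made of each gene's span plus 2 kb on both sides. Of the 10 members, 8 had a peak in all 6 libraries, and 64.1% of all genes measured did. The exceptions were both IRG effectors: Tgtp1, with a peak in 3 libraries, and Iigp1, with none in any library. The windows held 76 peaks over the 6 libraries, of which 50 lay at a gene start. Of these start peaks, 49 had an adjusted p under 0.05, against 15 of the 26 peaks elsewhere in the windows. A peak overlapped the promoter window in all 6 libraries at 8 of the 9 members with a promoter sequence, and at 41.4% of all genes with a start. At those 8 genes, every ISRE and GAS core lay inside a peak in every library.

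**Figure D1:**
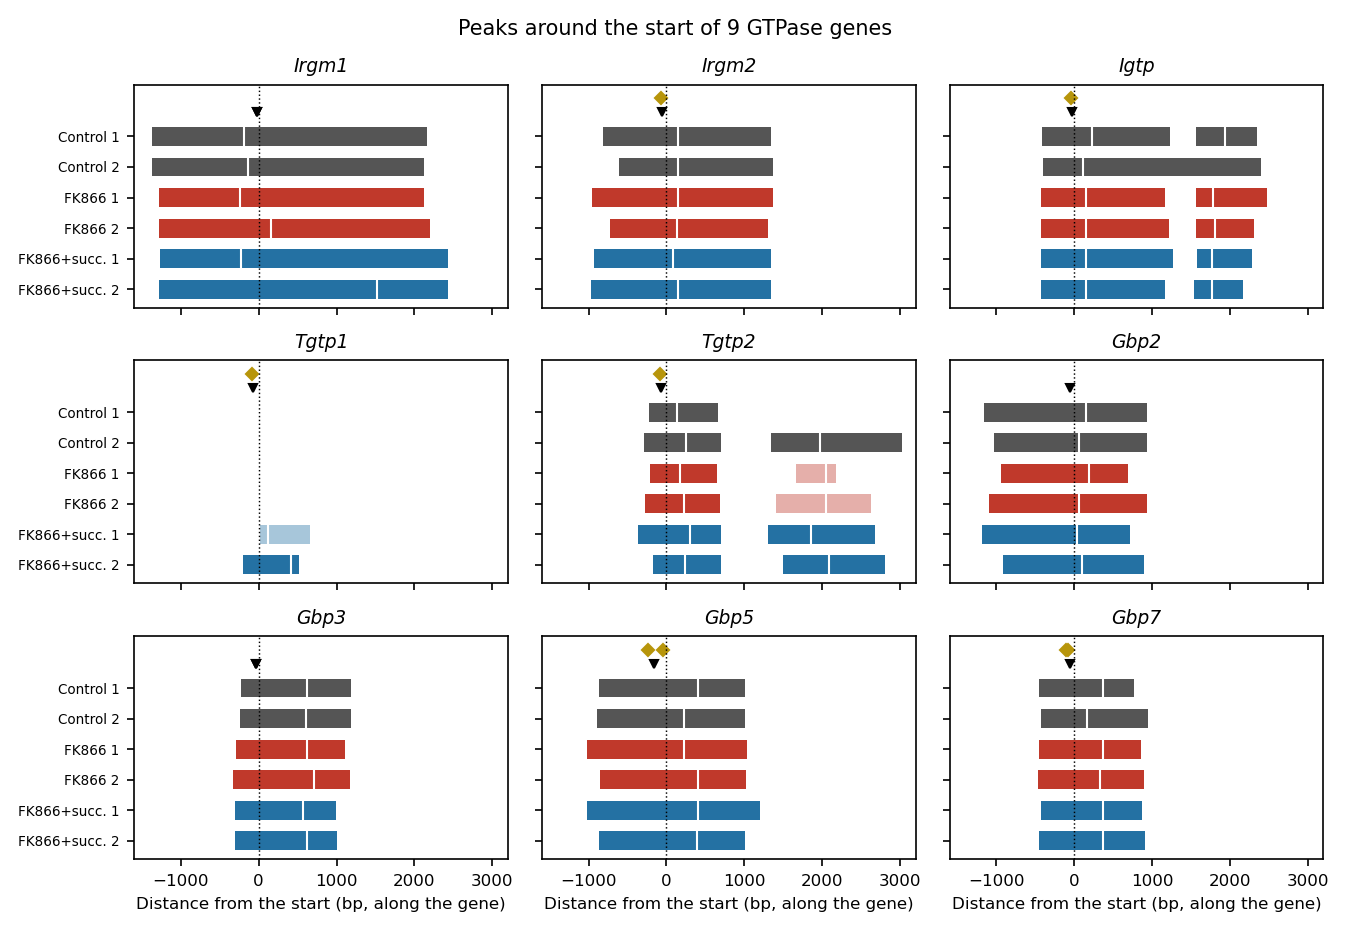
Peaks around the start of 9 GTPase genes, 1 row per library, with distance in bp along the direction of transcription on the x axis. Bars are peaks and white ticks their summits, pale bars are peaks whose adjusted p is not under 0.05, black triangles mark ISRE cores and gold diamonds GAS cores. Irgm1 has the widest peaks, and Tgtp1 has a peak at its start in the FK866 plus succinate libraries alone.

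Among the regulators, Irgm1 (chr11:48865245-48871420, mm10, minus strand), whose protein guards host membranes and supports autophagy, had 1 very broad peak per library. It measured 3530 and 3491 bp in Control, 3402 and 3476 bp in FK866, and 3694 and 3704 bp in FK866 plus succinate. Its median width of 3510.5 bp spanned the start from 1277 bp upstream to 2177.5 bp downstream. Its mean width exceeded that of 99.01% of the 13086 starts with a peak in all 6 libraries, whose median was 1628 bp. The peak was broad rather than strong, with a median fold of 3.997 in the authors' lists, read here as enrichment over the library's background. Strength was compared as a percentile, the percentile rank of a peak's −log10 p within its library's own list. The Irgm1 peak stood at percentiles 81.9 and 78.1 in Control, 76.7 and 78.0 in FK866, and 79.8 and 85.6 in FK866 plus succinate.

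The FK866 plus succinate peaks of Irgm1 were longer at the end inside the gene. Both ended 2428 bp downstream of the start, while those of the other 4 libraries ended between 2124 and 2198 bp. As a share of the window, the peaks of Control covered 34.5% ± 0.271 on average, those of FK866 33.8% ± 0.514 and those of FK866 plus succinate 36.4% ± 0.0695 (SD, n = 2 here and below). The 3 groups did not overlap, with FK866 lowest and FK866 plus succinate highest. All its peaks had an adjusted p under 0.05, so keeping such peaks alone could not change these differences.

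Irgm2 (chr11:58214977-58222783, plus strand), a regulator that also restrains inflammasome activation, had a start peak with a summit between 79 and 146 bp downstream of the start in every library. Peaks covered 21.2% and 19.8% of its window in Control, 23.0% and 21.5% in FK866, and 23.3% and 25.4% in FK866 plus succinate. The groups again did not overlap, but the order differed from that of Irgm1: both FK866 libraries lay above both Control libraries. Its start peak was 1983 to 2319 bp wide, and its median fold of 7.85 was higher than that of Irgm1. A small second peak beyond the end of the gene, in no annotated protein-coding gene and beginning between 9196 and 9357 bp downstream of the start, was present in all 6 libraries. FK866 plus succinate 2 alone had a further peak of 344 bp nearby, which is part of its value of 25.4%. Its other peaks, of 2308 and 349 bp, were narrower than those of FK866 1, of 2319 and 400 bp. FK866 plus succinate and FK866 were thus apart only with that further peak. The start peaks alone did overlap, at 2157 and 1983 bp in Control, 2319 and 2025 bp in FK866, and 2273 and 2308 bp in FK866 plus succinate.

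Igtp (chr11:58199556-58207592, plus strand), which encodes the third regulator and lies beside Irgm2, had 2 peaks in its window in 5 libraries. The first spanned the start and the second began between 1540 and 1573 bp downstream. In Control 2 the peaks were joined into 1 of 2805 bp. Coverage was 20.1% and 23.3% in Control, 20.8% and 19.9% in FK866, and 19.96% and 18.6% in FK866 plus succinate. The Control and FK866 groups overlapped, and both FK866 plus succinate libraries lay below both Control libraries, with means of 19.3% ± 0.993 and 21.7% ± 2.27. The percentile of its strongest peak did not follow the coverage. It stood at 84.9 and 88.0 in Control, 80.8 and 85.6 in FK866, and 90.4 and 87.1 in FK866 plus succinate, where it was above both FK866 libraries.

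Among the effectors, Tgtp1 (chr11:48985329-48992246, minus strand), a GTPase of pathogen vacuoles, was the member whose presence differed most between groups. Its window was not covered in either Control library or in FK866 1. In FK866 2 it held only a peak of 287 bp deep inside the gene, at percentile 3.56. A peak at the start appeared in the 2 FK866 plus succinate libraries and not in the other 4. In FK866 plus succinate 1 this peak (chr11:48991587-48992230) had a −log10 p of 3.35, a fold of 2.92 and percentile 41.8, and it stopped 16 bp inside the gene, short of the ISRE and GAS cores. In FK866 plus succinate 2 the peak (chr11:48991722-48992452) had a −log10 p of 5.17, a fold of 4.0 and percentile 66.3, and reached 206 bp upstream, across both cores printed above.

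Coverage of the Tgtp1 window was thus 5.90% and 11.5% in FK866 plus succinate, a mean of 8.72% ± 3.996, against 1.31% ± 1.86 in FK866. A start peak seen in these 2 libraries and missing from the other 4 occurred at 20 of 27025 genes with a start (0.074%), Tgtp1 among them. Because the gene was selected on this kind of value, that share is a description. With peaks at an adjusted p under 0.05, 13 genes had this pattern and Tgtp1 was not one of them, since the peak in FK866 plus succinate 1 dropped out. The start peaks of the other 8 members with peaks had median percentiles between 71.0 and 91.0.

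Tgtp2 (chr11:49057196-49064212, minus strand), the close paralog of Tgtp1, had a start peak in all 6 libraries. This peak was narrow, between 863 and 1075 bp, and its mean width exceeded that of only 5.24% of the starts with a peak in all 6. It stood at percentiles 76.4 and 67.0 in Control, 68.8 and 68.6 in FK866, and 73.3 and 81.5 in FK866 plus succinate. Both FK866 plus succinate libraries lay above both FK866 libraries, and the Control libraries overlapped both groups. A second peak, beginning between 1299 and 1665 bp downstream of the start, was present in every library except Control 1 and had an adjusted p under 0.05 in Control 2 and both FK866 plus succinate libraries. Coverage varied with that second peak and was 7.997% and 24.3% in Control, 12.5% and 19.9% in FK866, and 22.3% and 19.9% in FK866 plus succinate.

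The group means of Tgtp2 were 16.1% ± 11.5, 16.2% ± 5.25 and 21.1% ± 1.70. The Control libraries differed from each other by more than any pair of group means. FK866 plus succinate lay above FK866 in both libraries, but barely: peaks covered 2191 bp in FK866 2 and 2194 bp in FK866 plus succinate 2. The second peaks of both FK866 libraries had an adjusted p not under 0.05. With peaks under it alone, FK866 stood at 7.83% and 8.75% against 22.3% and 19.9% in FK866 plus succinate, a difference of 12.8 points in place of 4.94, and FK866 minus Control was −7.83 points in place of 0.0499, with overlapping groups.

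Iigp1 (chr18:60373616-60392634), which encodes the IRG effector best known from the attack on Toxoplasma vacuoles, had 0 bp covered in all 6 libraries. Peaks were called elsewhere on the same chromosome, between 993 and 1468 per library. No peak at Iigp1 means no called enrichment of the unnamed target, and says nothing about its RNA.

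**Figure D2:**
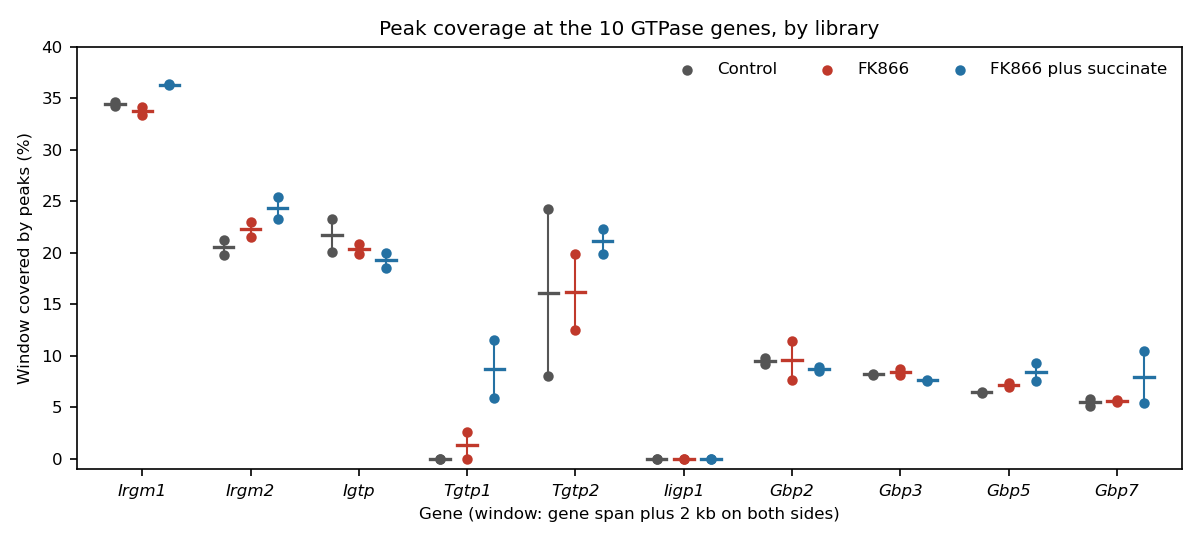
Percent of each gene's window (gene span plus 2 kb on both sides) covered by peaks in each library, on the y axis, for the 10 GTPase genes. Points are libraries, coloured by group, and horizontal bars are group means of 2 libraries. Irgm1 lies between 33.4% and 36.4% in every library, Tgtp1 is covered mainly in FK866 plus succinate, and Iigp1 is at 0 throughout.

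The 4 GBP genes lie in 1 cluster on chromosome 3, and each had a start peak in all 6 libraries. Gbp7 (chr3:142530336-142550151, plus strand) had the highest mean percentile of the members, although Irgm2 ranked higher in FK866 2 (89.7). Its percentiles were 91.1 and 88.2 in Control, 93.2 and 86.3 in FK866, and 91.0 and 93.3 in FK866 plus succinate. The groups overlapped. Its start peak was 1226 to 1382 bp wide with a median fold of 10.1. Coverage was 5.15% and 5.803% in Control, 5.53% and 5.71% in FK866, and 5.44% and 10.5% in FK866 plus succinate. The single high value came from 2 weak peaks inside the gene in FK866 plus succinate 2, each with a fold of 2.22 and an adjusted p not under 0.05. Without such peaks that library had 5.72%.

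Gbp5 (chr3:142496934-142522344, plus strand), a GTPase that promotes NLRP3 inflammasome assembly, showed the same library standing out. Its coverage was 6.41% and 6.48% in Control, 6.96% and 7.34% in FK866, and 7.56% and 9.28% in FK866 plus succinate. The 3 groups did not overlap and rose in that order. However, 3 of the 4 peaks of FK866 plus succinate 2 were weak, with folds of 2.21 to 2.22. With peaks at an adjusted p under 0.05, this library had 6.41%, equal to Control 1, and both comparisons with FK866 plus succinate then overlapped. The excess of FK866 over Control, 7.15% ± 0.272 against 6.44% ± 0.0457, came from peaks that all had an adjusted p under 0.05. The start peaks alone overlapped, at 2047 and 1879 bp in FK866 and 1886 and 1905 bp in Control. In FK866 2 the excess came from a further peak of 281 bp in no annotated protein-coding gene. That peak had a fold of 3.08 and percentile 41.8.

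Gbp3 (chr3:142560016-142573213, plus strand), a guanylate-binding protein, had the sharpest enrichment, with a median fold of 11.4 and a start peak of 1297 to 1505 bp. The summit lay well inside the gene, between 566 and 710 bp downstream of the first annotated start. Its coverage was 8.16% and 8.27% in Control, 8.16% and 8.75% in FK866, and 7.54% and 7.67% in FK866 plus succinate. Both FK866 plus succinate libraries were thus lower than all 4 others. This difference came from the end inside the gene, which lay at 987 and 1009 bp in FK866 plus succinate and between 1108 and 1180 bp in the other libraries. At the same time, its percentile was 75.8 and 74.1 in FK866 and 78.6 and 81.6 in FK866 plus succinate, so the narrower peak ranked higher in its own list.

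Gbp2 (chr3:142620663-142638008, plus strand), which accumulates on the vacuoles of Toxoplasma, had a start peak of 1634 to 2093 bp with a median fold of 8.58. Its window also reaches into the neighbouring Gbp2b. Coverage was 9.81% and 9.21% in Control, 7.65% and 11.5% in FK866, and 8.88% and 8.50% in FK866 plus succinate. The FK866 libraries lay on both sides of the others, but FK866 2 held a weak peak of 451 bp whose adjusted p was not under 0.05. Without such peaks that library had 9.48%, and FK866 plus succinate minus FK866 was 0.124 points in place of −0.864. FK866 plus succinate was below Control in both libraries, with means of 8.69% ± 0.268 and 9.51% ± 0.421.

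**Figure D3:**
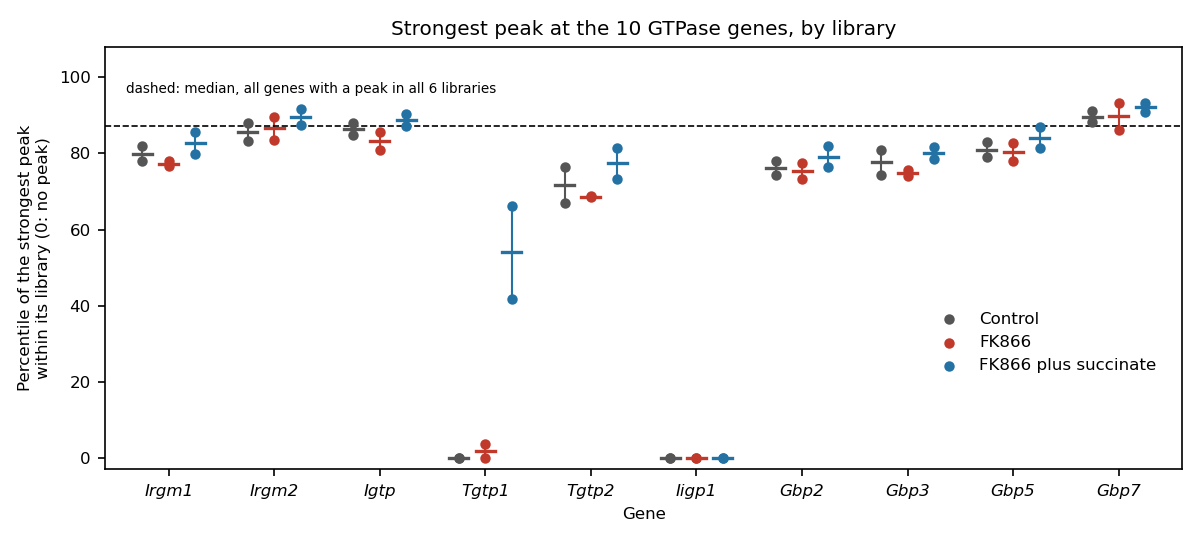
Percentile of the strongest peak in each gene's window within the library's own list, ranked by −log10 p, for the 10 GTPase genes. Points are libraries, horizontal bars are group means of 2 libraries, 0 means no peak, and the dashed line is the median of 87.2 over all genes with a peak in all 6 libraries. Gbp7 lies near or above the line, and Tgtp1 reaches 41.8 and 66.3 in FK866 plus succinate alone.

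Ordered by mean percentile of the start peak over the 6 libraries, Gbp7 came first, followed by Irgm2, Igtp, Gbp5, Irgm1, Gbp3, Gbp2 and Tgtp2. Neighbours in this order overlapped in their library values. Most of these peaks ranked low among starts with a peak in every library. The Gbp7 peak was stronger than 62.03% of the 13086 starts with a peak in all 6 libraries, and the other 7 were stronger than between 10.1% and 48.3%. Width followed another order, with Irgm1 wider than 99.01% of starts, Irgm2 than 81.8%, Gbp5 than 72.2%, Gbp2 than 68.8% and Igtp than 64.4%, and with Gbp3 at 30.1%, Gbp7 at 24.9% and Tgtp2 at 5.24%.

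FK866 was compared with Control to ask what blocking NAD salvage does at these genes, and few members were apart between the groups. The GTPase windows moved by a median of 0.0953 points of coverage, beside −0.108 over all 15358 genes with peaks in at least 2 libraries. Irgm2 and Gbp5 were higher in both FK866 libraries, by 1.75 and 0.707 points, and Irgm1 was lower in both, with a difference of −0.703 points. So 2 of 10 members were apart and higher, as were 12.8% of all genes tested, and 1 of 10 was apart and lower, as were 19.9%. Counts and medians over members, here and below, include Iigp1, which had no peak. Of the 10 members, the other 9 are among the genes tested. After quantile normalization 4 members were higher and 0 lower, and the share of all genes was not computed for that setting. Percentiles gave 1 member apart, Irgm1, which was lower in FK866, with a median over members of −0.800 beside −1.23 over all genes.

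FK866 plus succinate was compared with FK866 to ask what adding succinate does under the inhibitor, and here more members were apart. Coverage was higher in both libraries at Tgtp1 by 7.41 points, Tgtp2 by 4.94, Irgm1 by 2.56, Irgm2 by 2.09 and Gbp5 by 1.27. It was lower at Gbp3, with a difference of −0.852 points. That is 5 of 10 members higher, beside 17.9% of all genes tested, and 1 of 10 lower, beside 21.8%. The median over members was 1.68 points, and that over all genes tested was −0.0145. Percentiles were higher and apart at Tgtp1, Tgtp2, Irgm1, Igtp and Gbp3, with a median of 4.51 points beside 2.39 over all genes. The share of all genes apart by percentile was not computed in any comparison. The number of members apart by percentile is therefore not read as a trait of the members. The FK866 plus succinate lists were longer than the FK866 lists, and a rank within a longer list can be higher for the same peak. The part of list length in these percentiles was not tested, and they are not read as a change in signal.

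The size of that shift depended on which peaks were kept. With peaks at an adjusted p under 0.05, the median was 0.0621 points over members and −0.286 over all genes tested. The members that were higher were Irgm1, Irgm2 and Tgtp2. With the same number of peaks from each list, the medians were −0.0178 points over members and −0.231 over all genes tested. Tgtp1, Tgtp2, Irgm1 and Irgm2 were then higher. The share of all genes apart was computed for the main analysis alone. Without FK866 plus succinate 2, the library with the longest list, the median over members was 0.203 points, beside −0.141 over all genes tested. Without FK866 plus succinate 1 it was 2.37, beside 0.0194. Irgm1 and Irgm2, the regulators with the widest start peaks, had differences of 2.56 and 2.09 points under both choices of peaks. Every peak of these genes in FK866 and FK866 plus succinate passed both choices, so the differences could not change. At Irgm2 the groups were apart only with the further peak of 344 bp in FK866 plus succinate 2. Within gene spans alone, mean coverage at Irgm1 was 2162 bp in FK866 and 2429 bp in FK866 plus succinate. At Irgm2 it was 1332.5 and 1339 bp.

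FK866 plus succinate against Control shares its treated libraries with the previous comparison and its Control libraries with the first, and the first 2 comparisons share the FK866 libraries, so it adds no libraries of its own. Tgtp1, Irgm2, Gbp5 and Irgm1 were higher, by 8.72, 3.84, 1.97 and 1.85 points. Igtp, Gbp2 and Gbp3 were lower, with differences of −2.44, −0.815 and −0.611 points. None of these 3 was apart after quantile normalization (0 members lower), and at Igtp the lower Control library, at 20.1%, lay just above the higher FK866 plus succinate library, at 19.96%. So 4 of 10 members were higher, beside 13.4% of all genes tested, and 3 of 10 lower, beside 24.5%. The median over members was 1.91 points beside −0.132 over all genes. With peaks at an adjusted p under 0.05 it was 0.323 beside −0.312. Of the percentiles, Tgtp1 alone was apart.

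**Figure D4:**
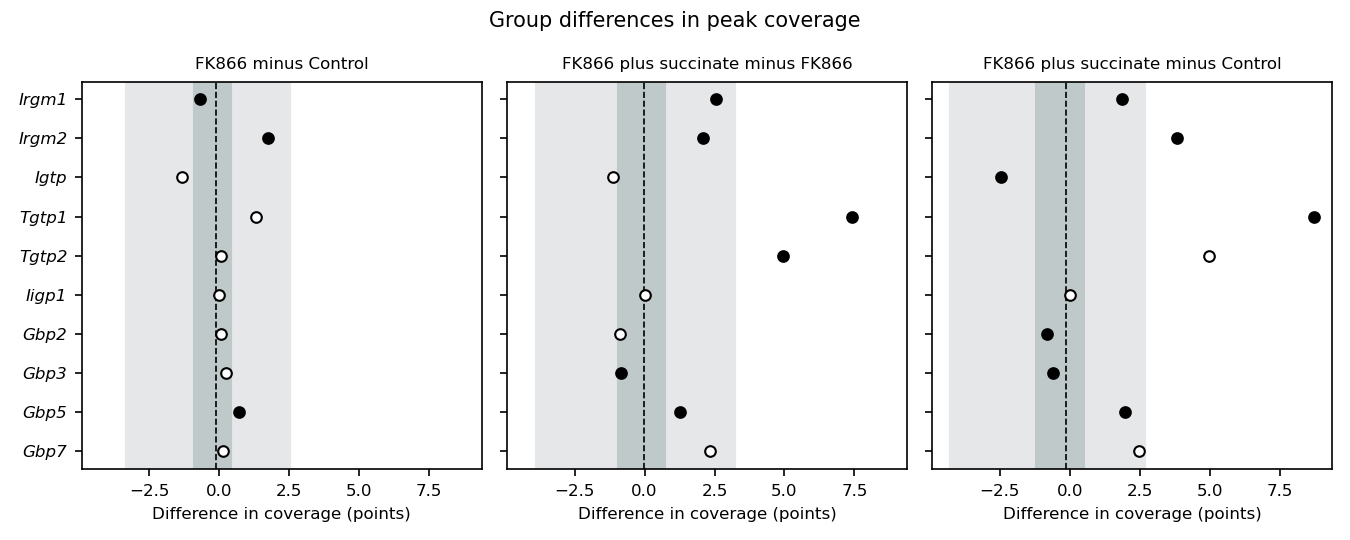
Difference in mean coverage between groups, in points of the window, for each of the 10 GTPase genes in the 3 comparisons. Filled circles are genes whose libraries did not overlap between the groups, the dark band runs from the 25th to the 75th percentile and the pale band from the 5th to the 95th percentile of all 15358 genes tested, and the dashed line is their median. Tgtp1 and Tgtp2 lie beyond the pale band in FK866 plus succinate minus FK866, at 7.41 and 4.94 points.

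Marker genes of other cells were set beside these differences. Mean coverage of the 5 ILC1 and NK markers, of which 2 had peaks in every library, ranged from 8.45% to 8.68% in Control, 6.78% to 7.48% in FK866 and 5.66% to 6.18% in FK866 plus succinate. For the 5 macrophage and monocyte markers, again 2 with a peak in all 6, it was 6.58% to 6.79%, 5.92% to 6.03% and 6.33% to 6.89%. The 4 B cell markers stood at 6.91% to 10.02%, 5.08% to 6.202% and 6.22% to 6.85%, and no group overlapped another. The 4 epithelial markers stood at 6.67% to 8.23%, 5.04% to 6.32% and 5.51% to 6.51%, with Control above both other groups. Coverage of the 5 T cell markers was 8.62% to 9.93%, 8.94% to 11.7% and 8.28% to 10.6%, and that of the 4 ILC3 markers 0.393% to 1.38%, 0.706% to 0.756% and 0.551% to 1.99%, with overlapping groups. The 10 ILC2 markers stood at 23.6% to 23.8%, 23.5% to 23.8% and 20.96% to 23.2%. In a bulk library, more cells with a peak and more signal per cell cannot be told apart. The part of these markers and of list length in the GTPase differences was not tested.

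The rest of the pathway was read from 3 lists of genes and tested with limma over all 15358 genes, with Benjamini-Hochberg adjustment. Of all genes tested, 0.0716% passed an adjusted p of 0.05 in FK866 minus Control, 0.0716% in FK866 plus succinate minus FK866 and 0.156% in FK866 plus succinate minus Control. None of the listed genes did, in any comparison or in any alternative analysis by limma. Of 22 other genes of interferon-inducible GTPase families, 19 were measured, 14 were tested, and 0 rose and 0 fell. Whether each of these genes is itself induced by interferon was not examined. At an unadjusted p under 0.05, limma gave 0, 1 and 1 of them in the 3 comparisons, in the order above, beside 746, 1325 and 1426 of the 15358 genes. Their median differences were −0.298, −0.115 and −0.308 points, and 13 of the 19 had a peak in all 6 libraries. Gbp10, Gm4951, Gm4841 and F830016B08Rik had no peak, as did Iigp1 among the members.

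The 3 other GTPases with the largest differences were Irgc1, Gm12250 and Gbp4. Gbp4 (chr5:105115767-105139586), a guanylate-binding protein outside the chromosome 3 cluster, was covered at 9.03% and 10.2% in Control, 9.31% and 10.04% in FK866, and 6.75% and 6.79% in FK866 plus succinate. Both FK866 plus succinate libraries were below all others, a difference from FK866 of −2.90 points (SE 0.830, limma adjusted p = 0.481). Gm12250 (chr11:58183843-58190198), an IRG-family gene beside Igtp, had 28.9% ± 4.44, 27.3% ± 1.85 and 23.3% ± 3.71. Its FK866 plus succinate libraries, at 20.7% and 25.966%, lay below both FK866 libraries, at 28.6% and 25.975%, but barely. Its Control libraries overlapped both groups. Irgc1, an IRG-family gene on chromosome 7, had 10.1% ± 7.50, 2.90% ± 4.10 and 3.53% ± 1.604, and its FK866 plus succinate libraries overlapped FK866.

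Of the 22 interferon receptor and signalling genes, all were tested, 21 had a peak in all 6 libraries, and 0 rose and 0 fell. At an unadjusted p under 0.05, limma gave 1, 3 and 4 of the 22 genes, beside 746, 1325 and 1426 of all 15358, and the median differences were −0.464, −0.0327 and 0.0403 points. Ifnar1 (chr16:91485032-91510523), a subunit of the type I interferon receptor, was covered at 10.1% and 11.2% in Control, 11.1% and 8.90% in FK866, and 15.0% and 15.97% in FK866 plus succinate. The difference of 5.48 points from FK866 had a limma adjusted p of 0.406 (SE 1.15), and that of 4.84 points from Control one of 0.394. Irf8, an interferon regulatory factor, had 9.96% ± 3.23, 6.98% ± 1.09 and 13.4% ± 0.601, with a limma adjusted p of 0.479 against FK866. Batf2, an interferon-induced transcription factor, was covered in Control 2 and in both FK866 plus succinate libraries, at 14.6%, 12.5% and 8.29%, and at 0 in Control 1 and both FK866 libraries.

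All 18 partners in autophagy and the inflammasome had a peak in all 6 libraries, and 0 rose and 0 fell. At an unadjusted p under 0.05, limma gave 1, 1 and 0 of the 18 genes, beside the same 746, 1325 and 1426 of all genes, and the median differences were −0.496, 0.112 and −0.277 points. Pycard, the adaptor ASC, stood at 22.5% ± 1.01, 24.0% ± 1.42 and 20.2% ± 0.229 over Control, FK866 and FK866 plus succinate, a difference of −3.75 points from FK866 (SE 1.08, limma adjusted p = 0.481). Nlrp3, the inflammasome sensor, had 8.18% ± 0.602, 6.55% ± 0.751 and 4.81% ± 2.38. Sqstm1, an autophagy receptor, had 16.2% ± 2.02, 13.4% ± 3.64 and 11.9% ± 1.42. The lists hold no test of the members themselves.

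The mean coverage of the 9 members with any peak was 12.6% and 14.6% in Control, 13.1% and 14.6% in FK866, and 15.2% and 16.4% in FK866 plus succinate. The FK866 plus succinate libraries were the highest, and the Control and FK866 libraries overlapped. Across the 6 libraries, the non-member genes whose coverage followed this profile most closely were Ttc25 (Pearson r = 0.988), Ggcx (0.967), Umodl1 (0.967), 4933424G06Rik (0.965) and Arl2 (0.965). Of 15348 genes compared, 99 had an r above 0.9. The points of these correlations are the same 6 libraries and share their list lengths, and the values are a description.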

How the data were processed

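The data were peak lists from 6 CUT&Tag libraries, 2 per group. The submitters' processing notes name cutadapt 1.9, Bowtie2 2.5.0 and mm10. The authors made 1 list per library, with a peak caller that the sources used here do not name. The lists have no header and follow the narrowPeak layout of 10 columns. The deposited score equals 10 times the −log10 p without decimals for at least 99.88% of peaks. The deposited fold is a ratio to the library's own background, and the deposited −log10 p, −log10 q (adjusted p) and summit offset also refer to 1 library. Because they depend on depth, which is unknown, they were used to describe and rank peaks within a list. Ranks from lists of different length are not read as a change in signal. Peaks on unplaced and other sequences (43 to 55 in a library) were dropped, and 0 per-sample columns were unmapped.

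Peaks overlapping a gene span plus 2 kb by at least 1 bp were intersected with it in Python 3.11.15 (pandas 2.3.3, numpy 2.4.6). Gene spans and promoters came from RefSeq tables of GRCm38.p6. Coverage is a measure of peak presence and width, not of signal height. Genes covered in at least 2 libraries were fitted with limma 3.58.1 (R 4.3.3, group means, eBayes with a trend, all 6 libraries), with an adjusted p threshold of 0.05. The code was also run on simulated, normally distributed values with added shifts. Such values are unlike coverage, which cannot fall below 0, so that run does not show how reliable the calls are. Groups were called apart when both libraries of one lay above both of the other. Promoters were aligned with Biopython 1.88.

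The members and lists were chosen with earlier results of these data known. Named genes were all 10 members, in each other list the genes past the threshold or otherwise the 3 with the largest difference, and the 5 non-members most like the members' mean profile. Alternatives changed the window, the peaks kept, the overlap, the scaling, the measure, the filter, the model and the libraries.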

Additional observations from a re-analysis of the deposited data

How the results depend on the processing

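Each value was recomputed with 1 choice changed. In FK866 minus Control, 2 members were apart and higher in the main analysis, 1 with gene spans alone, 4 with quantile normalization and 0 by percentile, and between 2 and 5 when 1 library was left out. The 1 member apart and lower became 0 with quantile normalization and between 1 and 4 without 1 library. When a compared group keeps 1 library, groups are apart more easily, so a count of members apart can then only stay or rise. In FK866 plus succinate minus FK866, the median over members was 1.68 points. It was 0.0621 with peaks at an adjusted p under 0.05, −0.0178 with lists of equal length and 4.51 by percentile. Over all genes tested, these settings gave −0.286, −0.231 and 2.39. Without 1 library, the median over members was between 0.203 and 2.37. Members apart and higher numbered 3 with peaks at an adjusted p under 0.05 in place of 5. The 1 apart and lower became 0 by percentile and between 1 and 2 without 1 library. In FK866 plus succinate minus Control, the median over members was 1.91 points. It was 0.323 with lists of equal length as well as with peaks at an adjusted p under 0.05, beside −0.262 and −0.312 over all genes tested. Members apart and higher numbered 2 with those peaks and 1 by percentile in place of 4, and members lower numbered 0 by quantile normalization and by percentile in place of 3. The genes with a start peak in FK866 plus succinate alone numbered 20, or 40 within 1 kb of the start and 13 when each peak needed an adjusted p under 0.05, both chosen after seeing the data. The cause was not tested for any of these shifts, and the shares of all genes apart were computed for the main analysis alone. Of 180 group values of single members under 3 alternatives, 153 moved by no more than the spread between libraries and 27 by more, 21 of these with gene spans alone. The values were covered bp and best-peak percentiles. Percentiles were ranked once in the full lists, so an alternative changes them only where the strongest peak drops out. Iigp1 stays at 0 under every alternative. The number of unmoved values is therefore no measure of stability.

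Over all genes, limma's count past the threshold in FK866 minus Control was 11, or 3 with gene spans alone, 5 with quantile normalization, 0 by percentile and 0 on the log2 scale of covered bp. In FK866 plus succinate minus FK866 it was 11, or 19 with gene spans alone, 19 with peaks at an adjusted p under 0.05, 1 by percentile and 0 on the log2 scale. In FK866 plus succinate minus Control it was 24, or 48 with peaks at an adjusted p under 0.05, 0 by percentile and 0 on the log2 scale. Leaving out any 1 library gave 0 genes in all 3 comparisons. The remaining library of a group was then assumed to vary like the others.

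With the replicate number as a block, 0 genes passed in each of the 3 comparisons, and 704, 1177 and 1261 had an unadjusted p under 0.05. The labels do not say that a number marks a shared culture, and same-numbered libraries did not deviate together (correlations of 0.00652, −0.0586 and 0.0220), so the block is given here alone. No listed pathway gene passed limma's adjusted threshold under any alternative. Read depth is unknown, and 2 libraries per group limit every statement on a difference.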
